A study of Homo sapiens with 12 samples.

Results

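The 10 genes described here encode machinery that reshapes and separates chromosomes in mitosis. They are SMC2 and SMC4, the ATPase core shared by both condensin complexes, NCAPD2, NCAPG and NCAPH of condensin I, NCAPD3 and NCAPG2 of condensin II, ESPL1 (separase), PTTG1 (securin) and TOP2A (topoisomerase IIα). They were taken by Ensembl identifier from the 20595 genes of the table, and all 10 were present. The RNA came from cultures of A549 or H1792 cells treated for 48 h with the vehicle DMSO or with 1 μM RG7112, a small molecule that blocks the binding of MDM2 to p53. A549 carries wild-type p53 and H1792 mutant p53, and the series describes both as lung adenocarcinoma lines with MDM2 amplification. Each of the 4 groups (A549 DMSO, A549 RG7112, H1792 DMSO and H1792 RG7112) held 3 replicates, all grown in medium with serum, and each cell line stands for a single genotype. The sources used here do not say whether the replicates were separate cultures, so p-values measure the spread between these samples, which may be technical.

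As background, condensin extrudes loops of DNA and compacts chromosomes. Condensin II resides in the nucleus through the cell cycle, whereas condensin I gains access to chromosomes once the nuclear envelope breaks down. Topoisomerase IIα passes one DNA duplex through another and so disentangles sister chromatids. Securin holds separase inactive until the anaphase promoting complex (APC/C) has it destroyed, and separase then cleaves cohesin, the ring that holds sister chromatids together. Many genes of this machinery are transcribed mostly in G2 and mitosis, through promoter elements called the cell cycle genes homology region (CHR, letters TTTGAA) and the CCAAT box bound by NF-Y, and p53 lowers many of them through p21 and the DREAM repressor complex.

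The total of estimated counts per sample ranged from 2011916 to 6218825, so that 3 counts corresponded to 0.465 to 1.43 CPM, the count scaled to the normalized library size. Of the epithelial markers, the 4 keratin genes were present in both lines (KRT8 mean of 992 CPM in H1792 DMSO and 11740 CPM in A549 DMSO). EPCAM was low, at 0.624 to 5.04 CPM over the 4 groups. The lung markers NKX2-1, SFTPB and SFTPC were at or near 0. Another lung marker, NAPSA, was at 2.175 and 4.198 CPM in A549 DMSO and RG7112, and at 0.408 and 0.583 CPM in H1792. The epithelial marker CDH1 was at 12.47 and 17.25 CPM in A549 DMSO and RG7112, and at 0.429 and 0.422 CPM in H1792. The collagen gene COL1A1 was at 279 CPM in H1792 DMSO. The leukocyte marker PTPRC and the endothelial marker PECAM1 were at or near 0 in all groups. The p53 targets CDKN1A and MDM2 rose in A549 by 3.58 and 2.99 on the log2 scale (adjusted p = 0.0252 and 0.0102, edgeR), whereas in H1792 their log2 fold changes were 0.15 and -0.05 (adjusted p = 0.882 and 0.928). Of 8 p53 targets listed, 4 passed the threshold as higher in A549 (3.18% of all genes) and 1 of the 7 tested in H1792 (10.3% of all genes). The A549 replicates numbered 3 stood apart from the other A549 samples in the size of their differences (chi-square per degree of freedom of 15.5 to 23.3, against 5.12 to 9.81 for the other pairs of replicates), and calls that change without both of them are given with both values.

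Promoter sequences are shown to set out which of these genes hold the CHR and CCAAT letters, which the measured values did not use. RefSeq promoters (GRCh38.p14, 250 bases before to 50 after each start) were found for all 10 genes, 14 promoters in all. The letters TTTGAA, searched on both strands, occurred in 8 of the 14 promoters, those of 8 genes, and in 15.2% of all 34943 promoters. NCAPH and PTTG1 had none. CCAAT, on either strand, occurred in 7 of the 14 promoters, those of 6 genes, and in 34.6% of all promoters. The E2F letters TTCCCGC occurred in 2 of the 14 promoters, those of NCAPG and NCAPD3 (6.54% of all promoters), and TTTGGCGC for no member (0.65%). Matches overlapped each other only in PTTG1, where a CCAAT on each strand shared letters. A match describes the letters, not a site that is bound. The promoters of ESPL1, TOP2A and NCAPH follow, in the direction of the gene and free of annotated exons, with TTTGAA and CCAAT (or their reverse complements) in capitals.
ESPL1, chr12:53268099-53268298, plus strand: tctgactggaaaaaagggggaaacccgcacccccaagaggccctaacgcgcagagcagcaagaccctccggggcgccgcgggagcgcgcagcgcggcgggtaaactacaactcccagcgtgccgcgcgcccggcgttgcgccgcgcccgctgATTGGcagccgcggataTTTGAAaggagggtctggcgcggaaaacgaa
TOP2A, chr17:40417951-40418096, minus strand: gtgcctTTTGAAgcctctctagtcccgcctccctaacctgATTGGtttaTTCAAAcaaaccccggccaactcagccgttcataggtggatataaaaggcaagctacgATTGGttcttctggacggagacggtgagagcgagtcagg
NCAPH, chr2:96335566-96335765, plus strand: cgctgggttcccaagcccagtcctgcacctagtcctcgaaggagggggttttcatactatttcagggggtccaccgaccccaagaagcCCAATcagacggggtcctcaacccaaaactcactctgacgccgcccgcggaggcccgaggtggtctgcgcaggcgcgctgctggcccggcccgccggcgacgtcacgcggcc
The ESPL1 promoter held 1 CCAAT box (reverse complement) and 1 TTTGAA within 48 bases of the start, the TOP2A promoter 2 copies of TTTGAA and 4 CCAAT boxes (2 of them in the stretch shown), and the NCAPH promoter 1 CCAAT box alone.

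The TTTGAA sites of the other condensin genes are given with up to 12 bases on either side, read in the direction in which TTTGAA appears, because their place relative to the start differed from gene to gene.
NCAPG, chr4:17810932-17810961, plus strand: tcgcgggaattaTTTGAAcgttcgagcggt
NCAPD2, chr12:6493945-6493974, plus strand: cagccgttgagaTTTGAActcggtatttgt
SMC4, chr3:160399563-160399592, minus strand: gggatccactaaTTTGAAaaaaagtgcggc
SMC2, chr9:104094294-104094323, minus strand: actatttattccTTTGAAtttcggcgcgag
NCAPD3, chr11:134223953-134223982, minus strand: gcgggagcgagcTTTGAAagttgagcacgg
NCAPG2, chr7:158704755-158704781, minus strand: ccggcgggtgcgTTTGAAtctggtccg
The letters began 35 bases before the start in NCAPG, 75 in SMC4 and 145 in NCAPD2, spanned the start in SMC2 and NCAPD3, and lay 36 bases into the transcript in NCAPG2. The start meant here is that of the RefSeq promoter. All of these sites lay wholly within annotated exons of GENCODE v29, unlike the 3 stretches shown above. TOP2B, the paralog of TOP2A, also held TTTGAA (227 bases before its start) and 2 CCAAT boxes.

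In A549 cells, the level of 7 of the 10 genes fell with RG7112, with log2 fold changes of -4.69 to -2.34. Those past the threshold (an absolute log2 fold change over 1 and an adjusted p under 0.05 in edgeR's quasi-likelihood test with Benjamini-Hochberg adjustment over all genes) were SMC4, the 3 condensin I genes, ESPL1, PTTG1 and TOP2A. SMC2, NCAPD3 and NCAPG2 did not pass it. Over all 10739 genes tested, 3.01% passed as lower, 3.18% as higher and 6.19% in either direction. None of the 10 genes was higher at an unadjusted p under 0.05 with edgeR or DESeq2, and 9 were lower with either tool. No share of all genes was computed at that unadjusted cutoff, so these counts have no value to be set against. The median log2 fold change was -2.89 for the 10 genes and -0.01 for all genes tested. In bulk RNA, fewer cells in G2 and mitosis and less RNA per cell cannot be told apart.

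**Figure D1:**
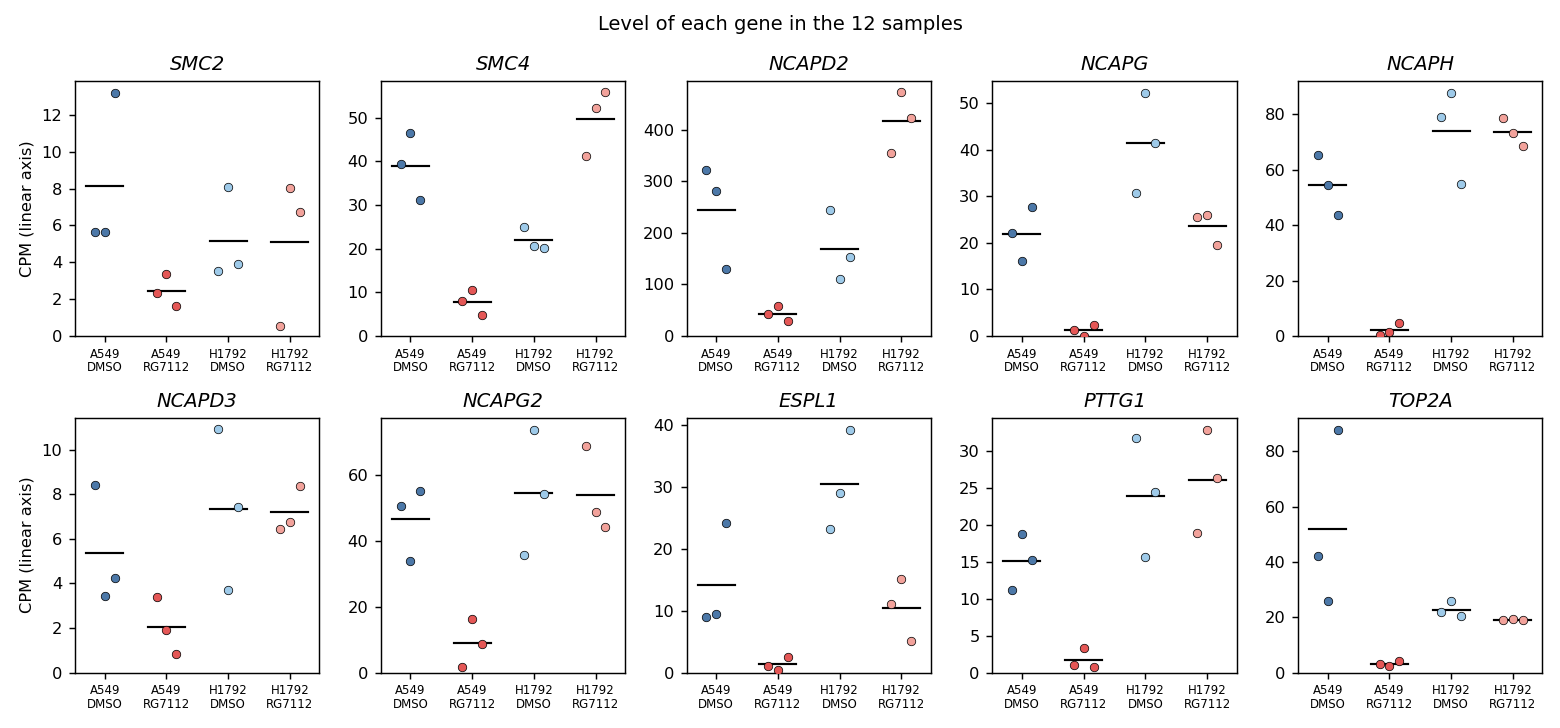
Level of each of the 10 genes in the 12 samples, as CPM on linear axes that differ between panels; points are replicates 1 to 3 from left to right and the horizontal line is the mean of the group. In A549 the RG7112 samples lie at or below the lowest DMSO sample in each panel, and in H1792 RG7112 lies above DMSO for SMC4 and NCAPD2 and below it for NCAPG, ESPL1 and TOP2A.

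Of the SMC core, SMC4 passed the threshold and SMC2 did not, and a difference between the genes was not tested. SMC4 (ENSG00000113810, chr3:160399274-160434962, plus strand, GRCh38) had 39.4, 46.6 and 31.1 CPM in the A549 DMSO samples and 8.06, 10.5 and 4.89 CPM with RG7112. The groups did not overlap, as was the case in the lower direction for 16.3% of all genes tested. The fall was 5.06-fold (log2 -2.34 ± 0.33 SE, n = 3 per group, edgeR adjusted p = 0.00779), and SMC4 passed the threshold in 19 of 19 alternative settings. SMC2 (ENSG00000136824, chr9:104094260-104141417, plus strand) had 5.62, 5.63 and 13.2 CPM with DMSO and 2.32, 3.34 and 1.63 CPM with RG7112. These rest on only 104 and 28 counts summed over each group, and the log2 fold change of -1.77 ± 0.52 (SE) had an adjusted p of 0.0852 (edgeR). DMSO replicate 3 held more than both other DMSO samples, and without both replicates numbered 3 the SMC2 log2 fold change was -1.03 (adjusted p = 0.219).

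Among the condensin I subunits, NCAPH (ENSG00000121152, chr2:96335787-96373845, plus strand), the kleisin that bridges the SMC heads, changed most. It had 65.3, 54.4 and 43.8 CPM with DMSO and 0.465, 1.43 and 4.62 CPM with RG7112, the first 2 of which are 3 counts each. Its log2 fold change was -4.69 ± 0.68 (SE, edgeR adjusted p = 0.00860), and leaving out single samples gave -6.13 to -4.06, each past the threshold. Without both replicates numbered 3 it was -6.29. NCAPG (ENSG00000109805, chr4:17810902-17844862, plus strand), a HEAT repeat subunit, had 22.2, 16.04 and 27.6 CPM with DMSO and 1.24, 0 and 2.44 CPM with RG7112. The RG7112 samples held 17 counts in all, against a much higher DMSO level, and the log2 fold change was -4.00 ± 0.67 (SE, adjusted p = 0.0143, edgeR). NCAPD2 (ENSG00000010292, chr12:6493356-6531955, plus strand), the other HEAT repeat subunit, had 322, 281 and 130 CPM with DMSO and 41.7, 57.2 and 29.6 CPM with RG7112. It fell 5.75-fold (log2 -2.52 ± 0.40 SE, adjusted p = 0.0112, edgeR), and its lowest DMSO value was that of replicate 3.

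Condensin II changed less clearly. NCAPG2 (ENSG00000146918, chr7:158631311-158704829, minus strand) had 50.6, 34.0 and 55.0 CPM with DMSO and 1.70, 16.2 and 8.69 CPM with RG7112. The groups did not overlap, yet the RG7112 samples ranged so widely that the log2 fold change of -2.48 ± 0.69 (SE) had an adjusted p of 0.0736 with edgeR, while DESeq2 gave 0.00290. NCAPD3 (ENSG00000151503, chr11:134150119-134225454, minus strand) had 8.43, 3.41 and 4.23 CPM with DMSO and 3.41, 1.91 and 0.815 CPM with RG7112. The highest RG7112 sample met the lowest DMSO sample, and the log2 fold change was -1.30 ± 0.62 (SE, adjusted p = 0.262, edgeR). The third non-SMC subunit, NCAPH2, which was outside the 10 genes, had 19.4, 28.7 and 24.9 CPM with DMSO and 9.45, 2.38 and 6.52 CPM with RG7112, and its log2 fold change of -1.92 ± 0.45 (SE) passed (adjusted p = 0.0436, edgeR). Whether the condensin I and condensin II responses differ from each other was not tested.

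Separase and its inhibitor were both lower. ESPL1 (ENSG00000135476, chr12:53268299-53293643, plus strand) had 9.06, 9.39 and 24.2 CPM with DMSO and 1.08, 0.477 and 2.44 CPM with RG7112. DMSO replicate 3 was the highest, and the RG7112 group held 17 counts in all. The log2 fold change was -3.33 ± 0.66 (SE, adjusted p = 0.0251, edgeR). PTTG1 (ENSG00000164611, chr5:160421822-160428744, plus strand) had 11.2, 18.8 and 15.2 CPM with DMSO and 1.08, 3.34 and 0.815 CPM with RG7112, with no overlap. Its log2 fold change was -3.26 ± 0.56 (SE, adjusted p = 0.0146, edgeR). Its close paralog PTTG2 was not analysed here.

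TOP2A (ENSG00000131747, chr17:40388516-40417950, minus strand) had 42.2, 25.9 and 87.9 CPM with DMSO and 2.94, 2.38 and 4.35 CPM with RG7112. DMSO replicate 3 was the highest by far, while the RG7112 samples lay close together. The fall was 15.7-fold (log2 -3.98 ± 0.54 SE, adjusted p = 0.00660, edgeR), and it was past the threshold in 18 of 18 alternative settings. TOP2B, the paralog expressed through the cell cycle and in resting cells, had 54.7, 59.4 and 102 CPM with DMSO and 62.5, 52.0 and 46.5 CPM with RG7112. The TOP2B groups overlapped, and its log2 fold change was -0.42 ± 0.28 (SE, adjusted p = 0.414, edgeR).

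The number of genes past the threshold in A549 depended on single samples. It was 5, 4 and 6 without DMSO replicates 1, 2 and 3, and 3, 6 and 7 without RG7112 replicates 1, 2 and 3. SMC4, NCAPH and TOP2A passed each time. NCAPD2 lost the call without DMSO replicate 2 or RG7112 replicate 1 (adjusted p = 0.0512 and 0.0564), NCAPG without DMSO replicate 1 or RG7112 replicate 1 (0.0558 and 0.0717), and PTTG1 without DMSO replicate 2 or RG7112 replicate 1 (0.0695 and 0.0705). ESPL1 lost it without DMSO replicates 1, 2 or 3 or RG7112 replicates 1 or 2 (adjusted p = 0.0551 to 0.105). Without both A549 replicates numbered 3, 6 genes passed, and PTTG1 did not (adjusted p = 0.0531, edgeR).

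In H1792 cells the same 10 genes did not move together. SMC4 and NCAPD2 rose, ESPL1 fell, and 7 genes did not pass the threshold. Over the 9914 genes tested, 10.3% passed as higher and 4.34% as lower, so that 3 of 10 stands against 14.6% in either direction. The median log2 fold change was 0.06 for the 10 genes and 0.01 for all genes tested.

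**Figure D2:**
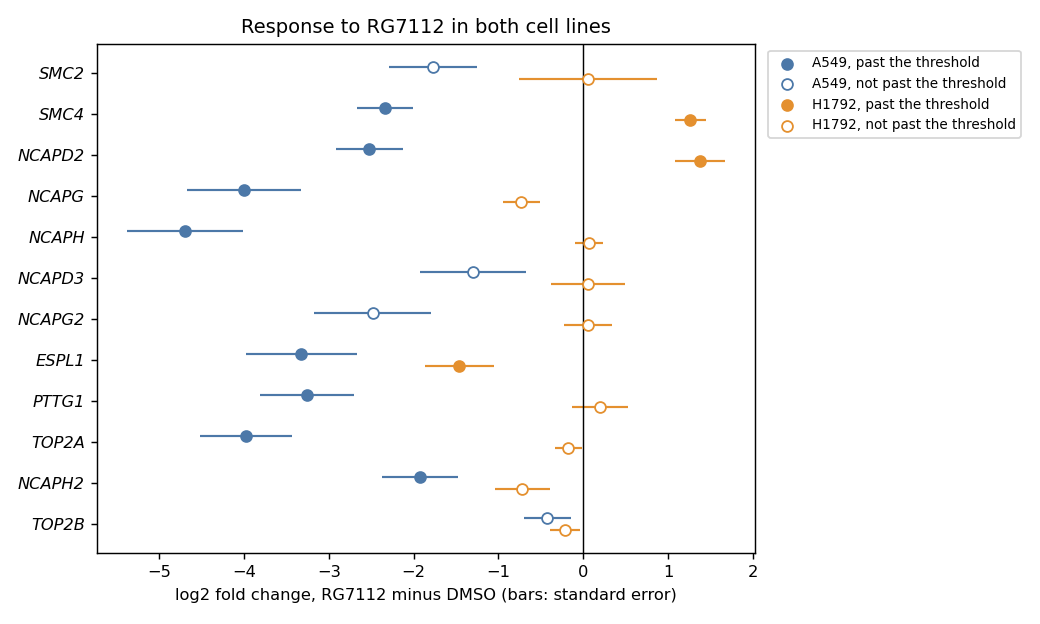
Log2 fold change with RG7112 in A549 (blue) and H1792 (orange) for the 10 genes and the paralogs NCAPH2 and TOP2B, with bars of 1 standard error; filled points passed the threshold on adjusted p and fold change. The A549 points all lie left of 0, and the H1792 points lie on both sides of it, from -1.46 for ESPL1 to 1.37 for NCAPD2.

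SMC4 had 25.0, 20.5 and 20.1 CPM in the H1792 DMSO samples and 41.3, 52.1 and 55.9 CPM with RG7112. The groups did not overlap, as for 24.9% of all genes tested in the higher direction. SMC4 rose 2.40-fold (log2 1.26 ± 0.18 SE, adjusted p = 0.00506, edgeR). After a correction for GC content the log2 fold change was 0.69 (adjusted p = 0.0201), which is below the fold threshold, and the longest SMC4 transcript is 37.3% GC. NCAPD2 had 244, 110 and 153 CPM with DMSO and 354, 472 and 422 CPM with RG7112. It rose 2.59-fold (log2 1.37 ± 0.30 SE, adjusted p = 0.0151, edgeR). Without DMSO replicate 3 or RG7112 replicate 2 its log2 fold change was 1.31 and 1.28, with adjusted p of 0.0546 and 0.0519. SMC4 overlaps IFT80 and TRIM59 on the opposite strand, NCAPD2 overlaps MRPL51, NCAPG overlaps LCORL and NCAPD3 overlaps JAM3 and VPS26B, and whether the counting used strand is not given in the sources used here.

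ESPL1 had 23.3, 29.1 and 39.2 CPM with DMSO and 11.1, 15.1 and 5.12 CPM with RG7112 in H1792, with no overlap. It fell 2.75-fold (log2 -1.46 ± 0.41 SE, adjusted p = 0.0347, edgeR). The call was lost in 10 of 18 alternative settings: with the GC correction the log2 fold change was -1.08 (adjusted p = 0.0871) and with library size alone -1.20 (adjusted p = 0.0588). It was also lost without DMSO replicates 2 or 3 (adjusted p = 0.0760 and 0.0969) and without RG7112 replicates 1 or 3 (0.0740 and 0.0569). Without DMSO replicate 3 only SMC4 passed, so that the count was 1, and it was 2 without DMSO replicate 2 or any single RG7112 sample. PTTG1 had 31.7, 15.7 and 24.4 CPM with DMSO and 18.9, 32.9 and 26.3 CPM with RG7112, and the groups overlapped (log2 0.20 ± 0.33 SE, adjusted p = 0.671, edgeR).

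NCAPG had 30.7, 52.2 and 41.4 CPM with DMSO and 25.6, 26.0 and 19.6 CPM with RG7112 in H1792. The groups did not overlap, as for 28.4% of all genes in the lower direction, and the log2 fold change of -0.73 ± 0.22 (SE) had an adjusted p of 0.0443 (edgeR) but was below the fold threshold. An adjusted p under 0.05 in the lower direction was found for 16.5% of genes, and in either direction for 34.1%. With the GC correction the NCAPG log2 fold change was -1.25 (adjusted p = 0.0148), past the threshold. NCAPH had 78.9, 87.7 and 54.9 CPM with DMSO and 78.8, 73.3 and 68.7 CPM with RG7112, so that the RG7112 samples lay within the DMSO range (log2 0.07 ± 0.17 SE, adjusted p = 0.791, edgeR).

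TOP2A had 21.8, 25.8 and 20.5 CPM with DMSO and 18.9, 19.4 and 19.1 CPM with RG7112 in H1792. All RG7112 samples lay below all DMSO samples, but the log2 fold change was -0.18 ± 0.16 (SE, adjusted p = 0.432, edgeR). Its direction turned with library size alone (0.08), a scaling that moved the median of all genes in H1792 from 0.01 to 0.27. With the GC correction the TOP2A log2 fold change was -0.70 (adjusted p = 0.0276), below the fold threshold, and its longest transcript is 39.1% GC. TOP2B had 102, 126 and 76.7 CPM with DMSO and 73.4, 86.8 and 89.6 CPM with RG7112 (log2 -0.21 ± 0.18 SE, adjusted p = 0.386).

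The condensin II genes and SMC2 did not pass in H1792. NCAPG2 had 35.6, 73.6 and 54.1 CPM with DMSO and 68.7, 48.6 and 44.0 CPM with RG7112 (log2 0.05 ± 0.28 SE, adjusted p = 0.902, edgeR). NCAPD3 had 10.9, 3.69 and 7.41 CPM with DMSO and 6.46, 6.76 and 8.38 CPM with RG7112 (log2 0.06 ± 0.44 SE, adjusted p = 0.934). SMC2 had 3.52, 8.08 and 3.92 CPM with DMSO and 0.517, 8.01 and 6.75 CPM with RG7112 (log2 0.05 ± 0.81 SE, adjusted p = 0.967). In all 3 genes the groups overlapped, and RG7112 replicate 1 held almost no SMC2. NCAPH2 had 38.8, 24.5 and 31.0 CPM with DMSO and 11.1, 23.3 and 19.6 CPM with RG7112, without overlap (log2 -0.72 ± 0.32 SE, adjusted p = 0.130).

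The difference between the responses was tested as an interaction over the 12 samples. For 7 of the 10 genes the A549 response was lower than the H1792 response at an adjusted p under 0.05 (edgeR), against 11.4% of the 11666 genes tested in this direction and 10.4% in the other. These were NCAPH (log2 difference of -4.71 ± 0.66 SE, adjusted p = 0.00112), NCAPD2 (-3.83 ± 0.53, 0.00105), TOP2A (-3.72 ± 0.57, 0.00185), SMC4 (-3.53 ± 0.38, 0.000212), PTTG1 (-3.43 ± 0.63, 0.00479), NCAPG (-3.17 ± 0.66, 0.00828) and NCAPG2 (-2.49 ± 0.79, 0.0443). The first 6 passed in each alternative in which they were tested. NCAPG2 passed in 8 of 23, and it lost the call with the GC correction (adjusted p = 0.138), without both A549 replicates numbered 3 (0.0939), and without A549 RG7112 replicate 3 or any 1 of the A549 DMSO or H1792 samples (0.0554 to 0.0872). For ESPL1 the difference between the lines was -1.78 ± 0.79 (SE, adjusted p = 0.128), so that a different response in the 2 lines was not shown. SMC2 (-1.74 ± 1.05, adjusted p = 0.260) and NCAPD3 (-1.28 ± 0.78, adjusted p = 0.261) did not pass, although SMC2 did without H1792 RG7112 replicate 1 (-2.30, adjusted p = 0.0475). TOP2B gave -0.13 ± 0.36 (adjusted p = 0.834) and NCAPH2 -1.12 ± 0.57 (adjusted p = 0.181). Library size alone moved the median of all genes in this contrast from 0.02 to -0.37. DESeq2, run without the filter on low counts, gave a median of 0.23 over 17299 genes rather than 11666. Under both settings 7 of the 10 genes passed.

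With DMSO, the levels of the 10 genes in the 2 lines were mostly within the spread of the replicates. TOP2A was the one gene past the threshold, higher in A549 by 1.19 ± 0.37 on the log2 scale (SE, adjusted p = 0.0220, edgeR), against 20.4% of all genes as higher and 34.9% in either direction. This rested on A549 DMSO replicate 3: without it the difference was 0.57 (adjusted p = 0.111, edgeR). Without both A549 replicates numbered 3 the TOP2A difference was also 0.57 (adjusted p = 0.0715, edgeR). The call was also lost without H1792 DMSO replicate 1 or 3 (adjusted p = 0.0633 and 0.0697). The lowest A549 and the highest H1792 sample were at 25.9 and 25.8 CPM, and groups without overlap, higher in A549, were found for 30.9% of all genes. SMC4 was higher in A549 by 0.84 ± 0.26 (SE, adjusted p = 0.0201), below the fold threshold. ESPL1 differed by -1.10 ± 0.50 (SE, adjusted p = 0.0944), and without A549 DMSO replicate 3 by -1.72 (adjusted p = 0.0186), past the threshold and lower in A549, as were 14.5% of all genes. Without both A549 replicates numbered 3 the ESPL1 difference was -1.72 (adjusted p = 0.0107, edgeR), also past the threshold. NCAPG differed by -0.92 ± 0.41 (SE, adjusted p = 0.0852), without overlap in CPM, as for 27.5% of all genes lower in A549, and without both A549 replicates numbered 3 it differed by -1.13 (adjusted p = 0.0372), past the threshold. The other 6 genes had adjusted p of 0.198 to 0.741.

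Levels of different genes were compared per length, as counts per kilobase of exon scaled to the same total in each sample (TPM), which order the genes within a group. The length was the union of all annotated exons, and the order and its gaps can depend on that choice. For PTTG1 the union is 2013 bases and the longest transcript 1070, and for NCAPH they are 3278 and 2952. The order with the longest transcript was not computed. NCAPD2 was the highest of the 10 in each group, with mean levels of 156 ± 73.3 TPM in A549 DMSO, 23.4 ± 9.11 in A549 RG7112, 92.1 ± 40.8 in H1792 DMSO and 300 ± 54.2 in H1792 RG7112 (SD, n = 3). NCAPH came next in 3 of the 4 groups, at 67.8 ± 18.2 TPM in A549 DMSO, 78.6 ± 16.9 in H1792 DMSO and 104 ± 3.02 in H1792 RG7112. In A549 RG7112 it was the fifth, at 2.19 ± 2.03 TPM. NCAPD2 and NCAPH overlapped between samples in both DMSO groups and did not overlap in H1792 RG7112.

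In A549 DMSO the order went on with TOP2A (31.5 ± 16.6 TPM), PTTG1 (30.2 ± 8.21), NCAPG2 (26.6 ± 5.38), SMC4 (18.8 ± 5.03) and NCAPG (17.8 ± 3.51), each overlapping its neighbour. Then came ESPL1 (6.22 ± 3.15), SMC2 (4.92 ± 2.15) and NCAPD3 (2.40 ± 1.33), and the single gap without overlap in this group was between NCAPG and ESPL1. In H1792 DMSO the order went on with PTTG1 (42.0 ± 15.6 TPM), NCAPG (29.2 ± 6.38), NCAPG2 (27.0 ± 8.33), TOP2A (12.3 ± 1.08), ESPL1 (11.99 ± 3.19), SMC4 (9.07 ± 1.45), NCAPD3 (2.86 ± 1.499) and SMC2 (2.76 ± 1.22), with gaps below NCAPH, NCAPG2 and SMC4. SMC2 was thus listed far below SMC4, although the proteins pair one to one. The gaps were computed with the union of exons alone. In A549 RG7112 the 8 genes below NCAPD2 and NCAPG2 lay between 0.503 ± 0.338 TPM (ESPL1) and 3.29 ± 1.39 TPM (SMC4), each overlapping its neighbour. In H1792 RG7112 PTTG1 (60.6 ± 18.3 TPM), NCAPG2 (35.5 ± 6.84), SMC4 (27.5 ± 5.36) and NCAPG (22.4 ± 3.01) overlapped in turn, TOP2A (13.8 ± 0.811) stood alone, and ESPL1 (5.45 ± 2.66), SMC2 (3.75 ± 2.98) and NCAPD3 (3.69 ± 0.669) were lowest.

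Ratios between partner genes were computed per sample from these length-scaled levels with a pseudocount of 1, and are given without a test. The log2 ratio of the summed levels of condensin I (NCAPD2, NCAPG and NCAPH) to those of condensin II (NCAPD3, NCAPG2 and NCAPH2) was 2.36, 2.13 and 1.25 in A549 DMSO and 0.87, 1.42 and 0.87 in A549 RG7112. In H1792 it was 1.86, 1.52 and 1.39 with DMSO and 2.56, 2.72 and 2.73 with RG7112. The ratio was thus higher with RG7112 in H1792 without overlap, whereas in A549 the RG7112 values were lower on average (1.05 ± 0.32 against 1.91 ± 0.58, SD) but overlapped those with DMSO. In H1792 RG7112 the condensin I sum was mostly NCAPD2 (300 TPM, against 104 for NCAPH and 22.4 for NCAPG). Of the subunits in this ratio only NCAPD2 passed the threshold in H1792, so the ratio does not describe each subunit.

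**Figure D3:**
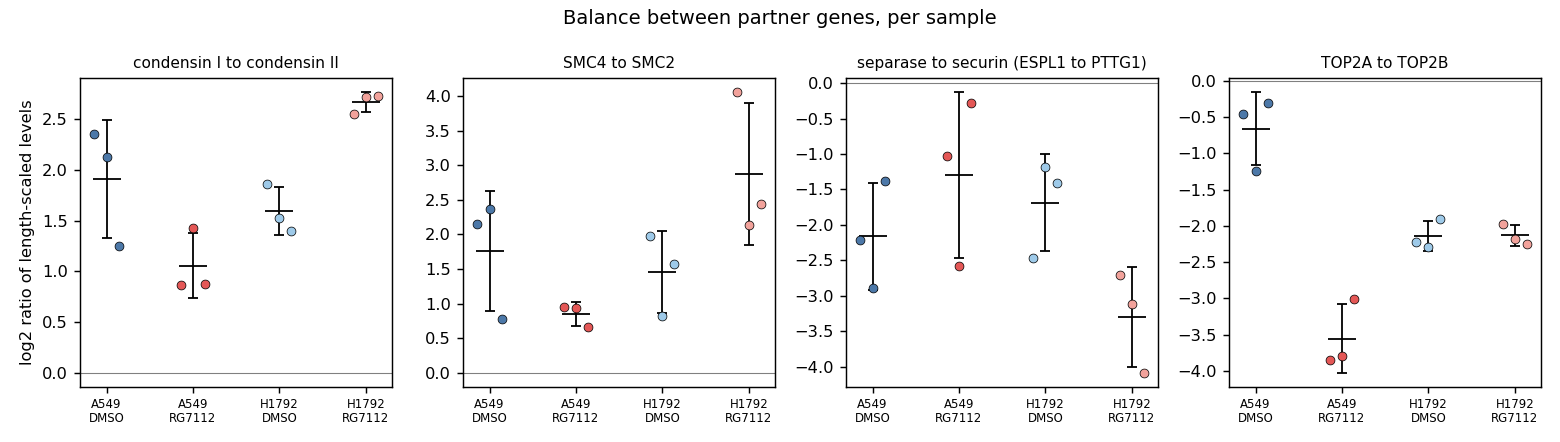
Log2 ratio of length-scaled levels between partner genes in each sample, with the mean (dash) and SD (bar) of 3 replicates per group; the grey line at 0 marks equal levels. The ratio of TOP2A to TOP2B is lower with RG7112 in A549 (-3.55 against -0.66) and about equal in both H1792 groups (-2.13 and -2.14).

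The log2 ratio of TOP2A to TOP2B was -0.45, -1.24 and -0.30 in A549 DMSO and -3.86, -3.79 and -3.01 in A549 RG7112, with no overlap. In H1792 it was -2.23, -2.29 and -1.90 with DMSO and -1.97, -2.18 and -2.24 with RG7112, which overlapped. The log2 ratio of separase to securin was -2.21, -2.89 and -1.39 in A549 DMSO and -1.03, -2.57 and -0.29 in A549 RG7112, which overlapped. In A549 RG7112 each of the 2 genes held 17 counts in all, and ESPL1 (0.503 TPM) lay below the pseudocount of 1. The mean of this ratio there was -1.30, and it ranged from -2.27 to -0.66 over the alternatives. In H1792 the ratio of separase to securin was -2.47, -1.18 and -1.40 with DMSO and -2.70, -3.12 and -4.08 with RG7112, lower in each RG7112 sample than in each DMSO sample. The log2 ratio of SMC4 to SMC2 was 1.76 ± 0.87 in A549 DMSO, 0.85 ± 0.17 in A549 RG7112, 1.46 ± 0.59 in H1792 DMSO and 2.88 ± 1.03 in H1792 RG7112 (SD, n = 3), and the last rests on few SMC2 counts.

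Lists of functional partners placed these genes in context. A list of 12 genes held those that load, phosphorylate or accompany condensin, and also NCAPH2, itself a condensin II subunit. With a list median of -3.27 on the log2 scale, 11 were tested in A549 and 9 fell, NCAPH2 included, against 3.01% of all genes. Among them were MKI67, a chromosome surface protein (-4.35 ± 0.21 SE, adjusted p = 0.000283), CCNB1, the mitotic cyclin B1 (-3.27 ± 0.18, 0.000326), and BIRC5, the survivin subunit of the chromosomal passenger complex (-4.95 ± 0.29, 0.000326). In H1792, 1 of 11 passed (14.6% of all genes in either direction), PLK1, a mitotic kinase, which fell (-1.31 ± 0.31, adjusted p = 0.0188), and the list median was 0.05.

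Of the 16 genes of cohesin and its regulators, 13 were tested in A549 and 3 fell, against 3.01% of all genes, with a median of -0.34. These were CDCA5 (sororin, which stabilizes cohesin on replicated DNA, -4.59 ± 0.51 SE, adjusted p = 0.00307), SGO1 (shugoshin, which protects centromeric cohesin, -3.58 ± 0.58, 0.0124) and RAD21, the cohesin kleisin that separase cleaves (-1.40 ± 0.25, 0.0175). In H1792, 2 of 14 passed as higher and 1 as lower, near the 10.3% and 4.34% of all genes. CDCA5 rose (2.51 ± 0.33, adjusted p = 0.00404), WAPL, which releases cohesin, fell (-1.10 ± 0.26, 0.0187), and STAG1, a cohesin subunit listed at 0 in the 3 DMSO samples, was at least 18.3-fold higher with RG7112 when the DMSO group was set at 3 counts per library. The list median in H1792 was 0.16. SMC3, a core cohesin subunit of every dividing cell, was listed at 0 in all 12 samples although its partner SMC1A reached 548 counts. SMC5 had at most 1 count and KIF4A, a kinesin that binds condensin, at most 4.

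Of the 16 genes in the table that act in the destruction of securin or bind it (APC/C subunits, activators and ubiquitin-conjugating enzymes, the spindle checkpoint, and the securin-binding PTTG1IP), 15 were tested in A549 and 5 fell, against 3.01% of all genes, with a median of -0.62. BUB1B (-4.21 ± 0.31 SE, adjusted p = 0.000700) and MAD2L1 (-3.30 ± 0.28, 0.00121) restrain the APC/C, and CDC20 (-4.51 ± 0.44, 0.00197) activates it. In H1792, 1 of 16 passed (14.6% of all genes in either direction), the APC/C subunit CDC27, which rose (1.38 ± 0.25, adjusted p = 0.00859), and the list median was 0.15. Of 7 other topoisomerases and partners tested in A549, 1 fell, against 3.01% of all genes. It was TDP1, which removes topoisomerase adducts from DNA (-1.17 ± 0.23 SE, adjusted p = 0.0259, edgeR), and the list median was -0.42. In H1792 none of the 7 passed with edgeR or DESeq2, against 14.6% of all genes in either direction with edgeR. There 1 had an unadjusted p under 0.05 with either tool, and the median was 0.56. Of the SMC5/SMC6 complex, 4 genes were tested in each line and none passed with edgeR or DESeq2. Of all genes, 6.19% passed in A549 and 14.6% in H1792 in either direction with edgeR. At an unadjusted p under 0.05 there was 1 in A549 and 3 in H1792 with either tool, and the medians were -0.88 and -0.03. No share of all genes was computed at that unadjusted cutoff. TOP1 and NSMCE3 were not analysed here.

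**Figure D4:**
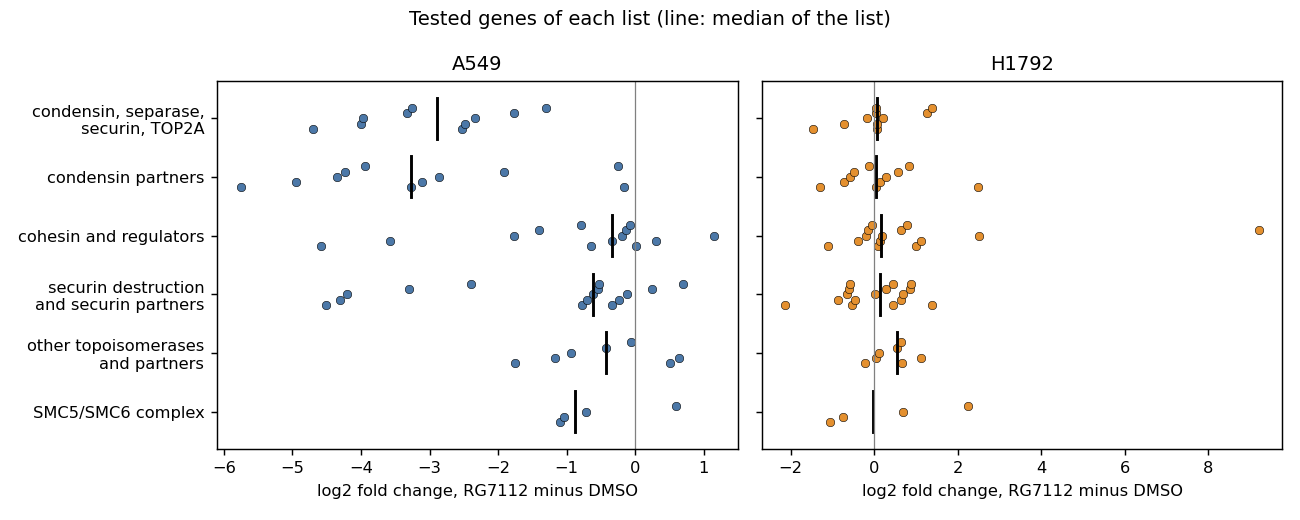
Log2 fold change with RG7112 for each tested gene of 6 lists, A549 on the left and H1792 on the right with its own scale; points are genes, staggered vertically so that they do not cover each other, and the black line is the median of the list. In A549 the medians of the 10 genes and of the condensin partners are -2.89 and -3.27 and those of the other lists lie between -0.88 and -0.34; the far right point in H1792 is STAG1, whose position depends on the zero counts with DMSO.

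The gene whose pattern over the 12 samples was nearest to that of TOP2A was MXD3 (root mean square difference of centred log2(CPM + 1) of 0.462), followed by PHF19 (0.477), RAD51AP1 (0.499), ARHGEF39 (0.503) and MCM4 (0.511), among 11665 genes. Of the other 9 genes described here, NCAPG2 was the nearest, at rank 103, and NCAPH the farthest, at rank 1084. This measure depends on the size of a change and on the spread of replicates, as well as on direction.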

How the data were processed

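Poly-A RNA of 12 samples was sequenced from both ends (38 nt reads per the labels). The authors deposited estimated counts for each gene, which they made with kallisto 0.45.0 on the Ensembl GRCh38 transcriptome and summed to genes. The values are whole numbers without normalization between samples. Groups and replicate numbers came from the sample titles, and the columns name a dose of 0.1 μM where the labels state 1 μM, which was used. The members and lists were chosen with earlier results of these data known. Named were the 10 members, TOP2B and NCAPH2, and up to 3 genes of each list and cell line with the smallest p past the threshold; CDKN1A and MDM2 stood for the p53 targets. SMC3, SMC5 and KIF4A were named after their values were seen.

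Software was DESeq2 1.42.0, limma 3.58.1, edgeR 4.0.16 and R 4.3.3. The filter on low values was edgeR's filterByExpr with a minimum count of 10 and a total of 15. Counts were scaled by TMM and tested by the quasi-likelihood test across all genes, in each cell line and, for the interaction and the DMSO contrast, over the 12 samples. The biological coefficient of variation (common dispersion) came to 0.345 for A549 and 0.270 for H1792. CPM are scaled by TMM over the 12 samples. Positions and exon lengths are from GENCODE v29, and promoters from RefSeq. No pair of replicates was a duplicate (chi-square per degree of freedom of 5.12 to 23.3). Floors of 3 counts cover counting error only. The procedure was tested on simulated data. Alternatives were other tools, scalings and filters, a replicate block, a loess correction for GC content (span 0.5), other samples in the fit, other thresholds and a pseudocount of 0.1.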

Additional observations from a re-analysis of the deposited data

Results flagged for a closer look

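The response to RG7112 differed between the cell lines for 7 of the 10 genes by the interaction test, with the A549 log2 fold change below that of H1792, as for 11.4% of all genes tested. The difference was -4.71 for NCAPH, -3.83 for NCAPD2, -3.72 for TOP2A, -3.53 for SMC4, -3.43 for PTTG1, -3.17 for NCAPG and -2.49 for NCAPG2. For SMC4 and NCAPD2 the responses had opposite directions and each passed the threshold in its own cell line. For the other 5 the H1792 response did not pass it, nor did the A549 response of NCAPG2 (adjusted p = 0.0736, edgeR), whose interaction passed in only 8 of 23 alternatives.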

How the results depend on the processing

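Low counts limit SMC2, NCAPD3 and the A549 RG7112 levels of NCAPG, NCAPH, ESPL1 and PTTG1. In A549 the 7 genes past the threshold became 3 with at least 10 counts in every sample, which left 3 of the 10 to test, 3 at an adjusted p under 0.01, and 3 to 7 on leaving out 1 sample. In H1792 the 3 genes became 0 with the replicate block and GC correction (4 at an unadjusted p under 0.05, edgeR), 1 at an adjusted p under 0.01, and 1 to 3 on leaving out 1 sample. For the interaction the 7 became 3 with at least 10 counts in every sample (3 tested) and 6 to 7 on leaving out 1 sample. With DMSO the count of 1 (TOP2A) became 2 with library size alone, the replicate block or no fold change threshold, each of which kept TOP2A. It also became 2 without both A549 replicates numbered 3, but there TOP2A was lost and ESPL1 and NCAPG passed, both lower in A549. The count was 0 with the DMSO samples alone (4 at an unadjusted p under 0.05, edgeR) or an adjusted p under 0.01 (3), and 0 to 1 on leaving out 1 sample. A count of 1 was not always TOP2A. It was ESPL1 with the replicate block and GC correction, and without A549 DMSO replicate 3. With at least 10 counts in every sample it was SMC4, and TOP2A was not tested there. The cause of these changes was not tested. For the counts at an unadjusted p, no share of all genes was computed.

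What samples of the same number shared beyond that number was not tested. Their deviations from the group means correlated by 0.0749 to 0.317 in A549 and -0.0507 to -0.00151 in H1792. In A549 the 0.317 was that of the samples numbered 3. Replicates 3 correlated with replicates 1 and 2 of the other treatment by -0.257 to -0.152, and replicates 1 and 2 with each other by 0.12 and 0.161. Blocking on that number gave replicate block counts of 7 in A549, 2 in H1792, 6 for the interaction and 2 with DMSO. Of all genes tested, the block called 612 of 10739 in A549 and 995 of 9914 in H1792. It called 2357 of 11666 for the interaction and 4020 of 11666 with DMSO.

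Directions turned for log2 fold changes that did not pass the threshold. In H1792, SMC2 was -0.36 with limma-trend, -0.26 with the block, -0.54 with the GC correction, -0.84 with both, -0.033 with all 12 samples in one fit, and -0.42 to 0.57 on leaving out 1 sample. NCAPH was -0.052 with the GC correction, -0.030 with the block and GC correction, -0.0091 with all 12 samples, and -0.10 to 0.18 on leaving out 1 sample. NCAPD3 was -0.0049 with the GC correction, -0.014 with all 12 samples, and -0.31 to 0.48 on leaving out 1 sample. NCAPG2 was -0.39 with the GC correction, -0.37 with the block and GC correction, -0.023 with all 12 samples, and -0.18 to 0.31 on leaving out 1 sample. PTTG1 was -0.064 to 0.47 on leaving out 1 sample, and TOP2A was 0.084 with library size alone. With DMSO, NCAPG2 was 0.031 with library size alone and -0.47 to 0.049 on leaving out 1 sample.

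The ratio of condensin I to condensin II was 1.24 and 2.36 in H1792 DMSO and RG7112 with the longest transcript as length. In A549 RG7112, a pseudocount of 0.1 gave -4.10 for TOP2A to TOP2B and 1.22 for SMC4 to SMC2, which was 1.14 with the longest transcript.

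Genes called in all moved by over 1.5 times from 665 in A549 to 279 at an adjusted p under 0.01 and 310 to 407 without DMSO replicate 1 or 2 or RG7112 replicate 1 or 2. From 1450 in H1792 they moved to 3384 without a fold change threshold, 722 at an adjusted p under 0.01, 551 with the block and GC correction, and 920 and 953 without RG7112 replicates 2 and 3. From 2539 for the interaction they moved to 1562 with the block and GC correction, 848 at an adjusted p under 0.01, and 1584 to 1683 without A549 DMSO replicate 1, H1792 DMSO replicate 2 or H1792 RG7112 replicate 2 or 3. From 4073 with DMSO they moved to 1938 with at least 10 counts in every sample.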
